A study of Homo sapiens with 40 samples.

Results

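The 8 genes described here carry or derive from the envelope gene of an endogenous retrovirus: ERVW-1, ERVFRD-1, ERV3-1, ERVK3-1, ERVMER34-1, ERVV-1, ERVV-2 and ERVH48-1. They were chosen by symbol, matched to the Ensembl gene ID of each row of the count table, and all 8 were found among 62486 rows. A549, a human cell line established from lung adenocarcinoma and carrying K-RAS G12S, was studied in a Control (CT) and a SETDB1 knockout (KO) state. The knockout was made by CRISPR/Cas9 with guide RNAs cloned into the PX458 plasmid. Whether the knockout cells were a single clone or a pool is not given in the sources used here, nor is what the control cells received. RNA-seq of total RNA was made from 3 libraries per genotype, among 40 samples that also covered ChIP-seq and Hi-C.

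Endogenous retroviruses are remnants of ancient germline infections, and most of their envelope genes have decayed. A few have kept an open reading frame and work in the placenta, where the syncytins fuse trophoblast cells into the syncytiotrophoblast by binding amino acid or lipid transporters on the neighbouring cell. In other tissues retroviral sequences are mostly held silent by KRAB zinc finger proteins, which bind them and recruit TRIM28 and SETDB1, an enzyme that trimethylates lysine 9 of histone H3 and so marks chromatin for repression.

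The libraries held 18065062 to 48364919 counts, the deepest being KO replicate 2, and levels are given as CPM, the standard unit that sets a gene's count against the TMM-adjusted total of its library. SETDB1 itself (ENSG00000143379) was at 37.5, 39.6 and 38.7 CPM in control and 23.4, 21.2 and 21.1 CPM in knockout libraries, so transcript remained in every knockout library. SETDB1 fell by 0.82 on the log2 scale (SE 0.060; edgeR adjusted p 1.7e-12). All 9 A549 and lung epithelial markers were detected, at a summed 18724 to 19280 CPM in control and 24044 to 24854 CPM in knockout libraries, but not in 1 direction: 6 rose, among them KRT8 and KRT18, and 3 fell, among them AKR1C1 (log2 fold change -1.54) and AKR1B10 (-0.87). Median log2 fold changes of chromosomes ranged from -0.54 (chromosome 2) to 0.37 (chromosome 12), and marker changes were not set against them. Trophoblast markers, the cells in which several of the 8 genes are best known, summed to 0.42 to 0.58 CPM in control and 0.92 to 1.42 CPM in knockout libraries, and 7 of the 14, among them CGA, CSH1 and ELF5, had no count in any library. The 4 leukocyte markers summed to 5.52 to 5.85 CPM in control and 4.02 to 5.35 CPM in knockout libraries (CD3E had no count), and the 5 fibroblast markers to 4.40 to 4.58 and 3.88 to 4.37 CPM (COL1A2 and DCN had none). The labels do not say that libraries came from separate cultures, so p-values measure the spread between these libraries, which may be technical.

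Of the 8 genes, 3 rose (ERVV-1, ERVV-2 and ERV3-1), 2 fell (ERVFRD-1 and ERVMER34-1), ERVK3-1 did not pass the threshold, and ERVW-1 and ERVH48-1 had too few counts to be tested. Calls rest on edgeR's quasi-likelihood test over 17767 genes at a Benjamini-Hochberg adjusted p under 0.05. At that threshold 32.8% of all tested genes were called higher and 30.0% lower (62.8% in either direction), so a call as such sets no gene apart. The median log2 fold change of all tested genes was 0.0038. The groups differed most at ERVV-1 and ERVV-2, which had no count in any control library. In bulk RNA a change in the share of cells that express a gene and a change in RNA per cell cannot be told apart.

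**Figure D1:**
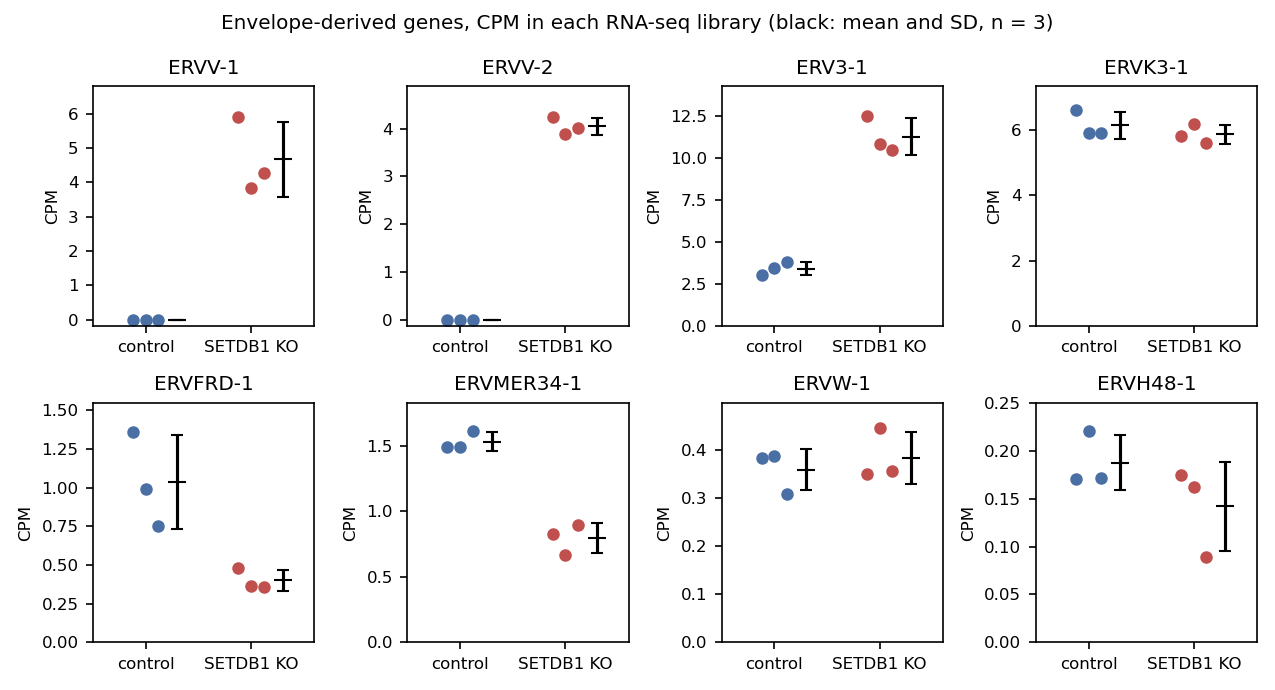
CPM (library-scaled count, vertical axis, linear) of each envelope-derived gene in the 3 control (blue) and 3 SETDB1 knockout (red) libraries, with the mean and SD in black. ERVV-1 and ERVV-2 lie at 0 in all control libraries and at 3.83 to 5.89 and 3.90 to 4.23 CPM in knockout libraries, while the points of ERVK3-1, ERVW-1 and ERVH48-1 overlap between genotypes.

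The table of RefSeq promoter windows used here (GRCh38.p14) matched 5 of the 8 genes. Their windows are shown so that the base composition and short motifs of genes that rose, fell, did not pass the threshold or were not tested can be compared. Each runs 5′ to 3′ on the strand of the gene, from 250 bases before to 50 bases after the start. Capitals mark 4 motifs searched on both strands: TATAAA (the TATA box, TTTATA when it lies on the reverse strand), CCAAT (the CCAAT box, ATTGG in reverse), GGGCGG (the GC box, CCGCCC in reverse) and AATAAA (a polyadenylation signal, TTTATT in reverse). Neighbouring matches can share bases. ERVV-1 is on the plus strand at chr19:53013671-53013970, ERV3-1 on the minus strand at chr7:65006638-65006937 (first start) and chr7:64999393-64999692 (second start), ERVMER34-1 on the minus strand at chr4:52751376-52751675, ERVK3-1 on the plus strand at chr19:58305127-58305426 and ERVW-1 on the minus strand at chr7:92471375-92471674. These positions are on the build of the RefSeq table, not on hg19, the build named in the submitters' processing notes.
ERVV-1: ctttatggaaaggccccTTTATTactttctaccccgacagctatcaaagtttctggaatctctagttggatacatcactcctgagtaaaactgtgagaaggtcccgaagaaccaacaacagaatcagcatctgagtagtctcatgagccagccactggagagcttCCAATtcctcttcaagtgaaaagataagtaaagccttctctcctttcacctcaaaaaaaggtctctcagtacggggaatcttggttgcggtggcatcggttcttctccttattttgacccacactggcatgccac
ERV3-1 first start: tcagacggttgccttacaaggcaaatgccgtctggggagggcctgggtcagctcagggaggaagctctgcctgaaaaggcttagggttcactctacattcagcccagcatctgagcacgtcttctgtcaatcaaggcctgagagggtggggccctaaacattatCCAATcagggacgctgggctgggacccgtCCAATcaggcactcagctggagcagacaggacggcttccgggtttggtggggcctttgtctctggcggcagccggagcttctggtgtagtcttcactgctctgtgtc
ERV3-1 second start: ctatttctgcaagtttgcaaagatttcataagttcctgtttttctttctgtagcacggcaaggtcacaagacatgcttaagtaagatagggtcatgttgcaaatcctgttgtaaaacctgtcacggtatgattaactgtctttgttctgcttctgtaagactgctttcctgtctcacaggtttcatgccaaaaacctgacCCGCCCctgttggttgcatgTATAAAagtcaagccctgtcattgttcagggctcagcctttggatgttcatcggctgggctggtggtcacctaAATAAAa
ERVMER34-1: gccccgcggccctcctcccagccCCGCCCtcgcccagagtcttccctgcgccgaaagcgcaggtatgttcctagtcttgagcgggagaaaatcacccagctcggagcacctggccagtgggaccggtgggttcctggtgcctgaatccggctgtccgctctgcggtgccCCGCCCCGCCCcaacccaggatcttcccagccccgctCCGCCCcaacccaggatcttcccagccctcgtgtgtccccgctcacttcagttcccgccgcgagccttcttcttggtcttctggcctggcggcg
ERVK3-1: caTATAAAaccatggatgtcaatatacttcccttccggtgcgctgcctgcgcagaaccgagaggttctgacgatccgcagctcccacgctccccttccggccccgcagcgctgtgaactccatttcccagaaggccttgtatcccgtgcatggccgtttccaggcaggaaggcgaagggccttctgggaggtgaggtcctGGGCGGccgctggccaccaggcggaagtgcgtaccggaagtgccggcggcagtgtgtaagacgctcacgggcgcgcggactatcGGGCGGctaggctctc
ERVW-1: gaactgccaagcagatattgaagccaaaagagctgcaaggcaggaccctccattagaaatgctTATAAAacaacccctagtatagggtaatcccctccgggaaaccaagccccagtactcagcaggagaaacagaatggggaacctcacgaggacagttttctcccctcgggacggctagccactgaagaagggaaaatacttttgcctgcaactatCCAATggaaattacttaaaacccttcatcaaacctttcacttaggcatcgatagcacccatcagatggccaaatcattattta

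The windows differed in composition. That of ERVV-1 had 45.3% G and C and 5 CpG dinucleotides, against medians of 58.7% and 14 over 35116 RefSeq windows of the same length. That of ERVW-1, which was not tested and whose libraries overlapped, was alike in composition, with 46.0% G and C and 5 CpG dinucleotides. It held the letters TATAAA at -187 and CCAAT at -33. The first start of ERV3-1 had 9 CpG dinucleotides and a pair of CCAAT boxes. Its second start had 4, with a TATA box beginning at position -30 from the start and a polyadenylation signal on the same strand. ERVMER34-1 and ERVK3-1 had 24 and 27 CpG dinucleotides and GC boxes, 4 and 2 of them. Over all windows TATAAA was present in 11.5%, CCAAT in 34.6%, GGGCGG in 45.0% and AATAAA in 17.4%. These matches are a description of the letters in the windows.

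ERVV-1 and ERVV-2 encode envelope proteins of the HERV-V group and sit next to each other on chromosome 19 (ENSG00000269526 and ENSG00000268964). ERVV-1 had 0 counts in each control library and 135, 189 and 96 counts in the knockout libraries, which is 5.89, 3.83 and 4.28 CPM. The control and knockout libraries did not overlap. Against a floor of 3 counts over the control group (0.042 CPM), ERVV-1 was at least 110.1-fold higher in knockout cells (edgeR adjusted p 1.1e-10).

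ERVV-2 likewise had 0 counts in each control library, and 97, 192 and 90 counts in the knockout libraries. That is 4.23, 3.90 and 4.01 CPM, again without overlap, and at least 95.5-fold higher (edgeR adjusted p 1.9e-15). Such a lack of overlap was found for 65.8% of all tested genes. Both genes passed the expression filter through the knockout libraries alone. In counts, ERVV-1 stood to ERVV-2 as 1.39, 0.98 and 1.07 to 1 in the knockout libraries. The pair are related copies, and how reads shared between copies were counted is not given in the sources used here.

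Genes with a silent control and a clear knockout signal were then counted. Of 27789 genes with no count in any control library, 134 (0.482%) had at least 10 counts in each knockout library, and ERVV-1 and ERVV-2 were the members among them. Of 62486 rows, 38851 had a count in any library. Most of the 27789 were therefore silent in knockout libraries too and could not qualify, which lowers the share. Of the 134 genes, 53 were placed on chromosome 19 and 45 had a ZNF symbol. By mean knockout CPM ERVV-1 ranked 35 and ERVV-2 ranked 42 of the 134.

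The neighbours of ERVV-1 and ERVV-2 were compared next. The 5 nearest tested genes on either side all have ZNF symbols, and all 10 rose, 6 of them from 0 control counts. On the left, ZNF702P rose from a single count over the control libraries to 9.88 ± 0.10 CPM (SD, n = 3). On the right, ZNF160 rose 2.03-fold from 28.6 ± 3.1 to 58.0 ± 2.1 CPM (SD, n = 3), the smallest change of the 10. ZNF888, a zinc finger gene with no control count, reached 114 CPM, at least 2695-fold higher against the same floor. With genes of 0 control counts at their lower bound, the median log2 fold change of the 10 was 7.85. The stretch of consecutive tested genes called higher by at least 2-fold ran from ZNF610 to ZNF818P, and besides ERVV-1 and ERVV-2 it held 23 genes, all 23 with ZNF symbols. It ended at ZNF480 on one side and NDUFV2P1 on the other. The zinc finger genes are close paralogs whose shared reads are uncertain in the same way.

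**Figure D2:**
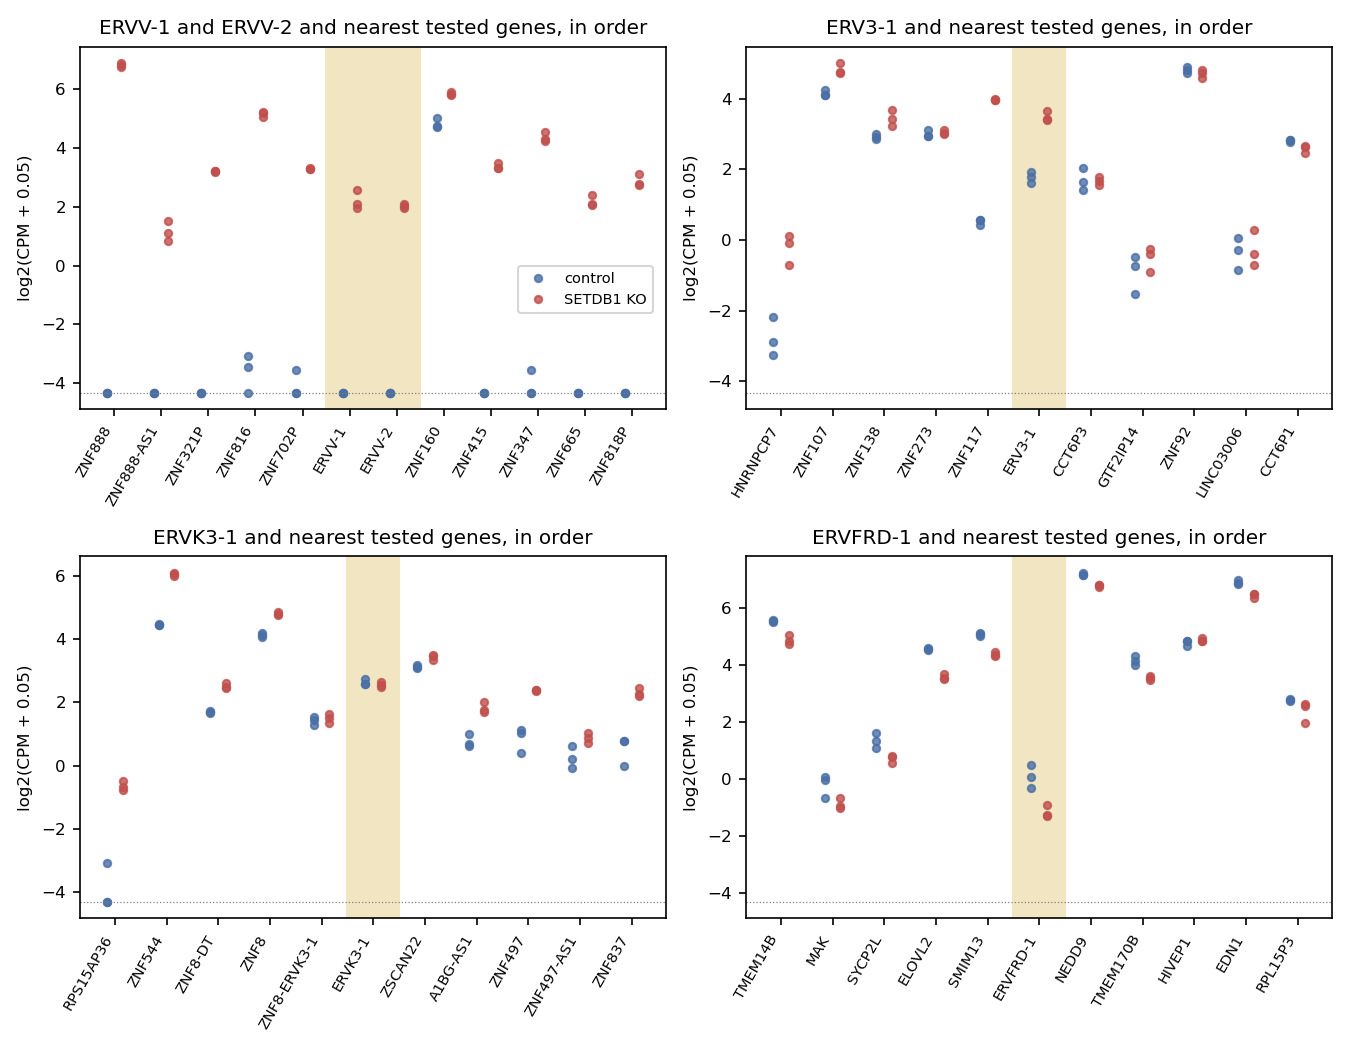
Level of each gene in each library, as log2(CPM + 0.05) on the vertical axis, for members (shaded) and the 5 nearest tested genes on either side in RefSeq order. Control libraries are blue, knockout libraries red, and the dotted line is 0 CPM. Every neighbour of ERVV-1 and ERVV-2 is higher in knockout libraries, ERV3-1 shares its rise with ZNF117, ERVK3-1 overlaps between genotypes among neighbours of which 9 of 10 rose, and 9 of the 10 neighbours of ERVFRD-1 fell.

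ERV3-1 (ENSG00000213462, chromosome 7) encodes the envelope of the HERV-R group, known from placenta and several adult tissues. It was already expressed in control cells, at 3.02, 3.42 and 3.78 CPM, and reached 12.5, 10.8 and 10.4 CPM in knockout libraries. Every knockout library lay above every control library. The fitted change was 3.26-fold (95% interval 2.78 to 3.81; log2 fold change 1.70, SE 0.11, edgeR adjusted p 1.5e-13).

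ERV3-1 overlaps ZNF117, a zinc finger gene, and RefSeq also lists a transcript that joins the pair. ZNF117 rose more, from 1.39 ± 0.078 to 15.6 ± 0.21 CPM (SD, n = 3), an 11.2-fold change (edgeR adjusted p 2.6e-20). Within a library, which needs no scaling, there were 2.09, 2.38 and 2.89 ERV3-1 counts for each ZNF117 count in control and 0.79, 0.69 and 0.68 in knockout libraries. The ratio did not overlap between genotypes. Its exact permutation p was 0.10, the smallest that 3 against 3 libraries allow, and the pair was chosen after its values were seen. Reads in the shared stretch cannot be assigned with certainty to either gene. The next tested gene past ZNF117, ZNF273 (log2 fold change 0.030), and the one on the other side, CCT6P3 (0.017), did not pass the threshold. Farther out on the side of ZNF117, ZNF138 and ZNF107 rose by 0.53 and 0.67 on the log2 scale, and HNRNPCP7, a pseudogene, by 2.85 from 0.10 CPM. Of the 10 neighbours 4 rose and 6 did not pass, with a median log2 fold change of 0.17.

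ERVK3-1 (ENSG00000142396, chromosome 19) derives from an ERV-K element and lies among zinc finger genes as ERVV-1 and ERVV-2 do, in another cluster. It was at 6.63, 5.91 and 5.91 CPM in control and 5.81, 6.19 and 5.61 CPM in knockout libraries, which overlapped. The fitted ratio was 0.96 (95% interval 0.83 to 1.12; edgeR adjusted p 0.67). The interval excludes a rise of the size seen for ERV3-1.

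Around ERVK3-1, 9 of 10 neighbours rose, with a median log2 fold change of 0.96. ZNF8, which lies upstream, rose 1.59-fold from 17.6 ± 0.73 to 28.0 ± 0.80 CPM (SD, n = 3; edgeR adjusted p 4.6e-10), and ZSCAN22 on the other side rose 1.25-fold (edgeR adjusted p 0.0016). RPS15AP36, a ribosomal protein pseudogene, rose by 4.16 on the log2 scale from 0.023 CPM. ZNF8-ERVK3-1, a readthrough transcript that overlaps ERVK3-1, did not pass the threshold (2.63 against 2.76 CPM, edgeR adjusted p 0.91). There were 0.37, 0.35 and 0.32 ERVK3-1 counts for each ZNF8 count in control libraries and 0.21, 0.21 and 0.21 in knockout libraries, without overlap (exact permutation p 0.10, the smallest possible). With ZNF8-ERVK3-1 in place of ZNF8 the ratios overlapped, at 2.48, 2.49 and 2.07 in control and 1.9, 2.5 and 2.03 in knockout libraries (exact permutation p 0.4). These pairs too were chosen after their values were seen.

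ERVFRD-1 (ENSG00000244476, chromosome 6) encodes syncytin-2, which fuses cells through the lipid transporter MFSD2A. It had 32, 18 and 22 counts in control and 11, 18 and 8 in knockout libraries, or 1.36, 0.99 and 0.76 against 0.48, 0.37 and 0.36 CPM. No knockout library reached the lowest control library. The fitted ratio was 0.39 (95% interval 0.25 to 0.59; log2 fold change -1.37, SE 0.30, edgeR adjusted p 0.00024).

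Genes around ERVFRD-1 fell as well. Of its 10 neighbours 9 were lower and HIVEP1 did not pass, with a median log2 fold change of -0.65, whereas the median over the 759 tested genes of chromosome 6 was -0.051. SMIM13, whose span overlaps ERVFRD-1, fell from 33.8 ± 1.02 to 20.9 ± 1.14 CPM (SD, n = 3; log2 fold change -0.70, edgeR adjusted p 6.7e-11). NEDD9, a scaffold protein of integrin signalling on the other side, had a log2 fold change of -0.40. The ratio of ERVFRD-1 to SMIM13 counts was 0.039, 0.030 and 0.022 in control and 0.024, 0.018 and 0.016 in knockout libraries, which overlapped (exact permutation p 0.20, where 0.10 is the smallest possible). That pair was likewise chosen after its values were seen. The part of the surrounding stretch in the fall of ERVFRD-1 was not tested.

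ERVMER34-1 (ENSG00000226887, chromosome 4) encodes HEMO, an envelope protein that is shed from the cell surface. It was at 1.49, 1.49 and 1.61 CPM in control and 0.83, 0.67 and 0.89 CPM in knockout libraries, from 109 and 72 counts in all. The groups did not overlap. The fitted ratio was 0.50 (95% interval 0.37 to 0.68; log2 fold change -1.004, SE 0.22, edgeR adjusted p 0.00024). Of its 10 neighbours 1 rose (USP46-DT, by 0.50 on the log2 scale), 2 fell and 7 did not pass the threshold, with a median log2 fold change of -0.016. DANCR, a long noncoding RNA on one side, did not pass (14.3 against 15.4 CPM), and SCFD2 on the other fell by 0.22 on the log2 scale. PDGFRA, a growth factor receptor farther away, fell by 3.19 from 1.30 CPM.

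ERVW-1 encodes syncytin-1, and ERVH48-1 encodes suppressyn, a secreted protein that binds the syncytin-1 receptor and blocks fusion. ERVW-1 (ENSG00000242950, chromosome 7) had 9, 7 and 9 counts in control and 8, 22 and 8 in knockout libraries, or 0.38, 0.39 and 0.31 against 0.35, 0.45 and 0.36 CPM. ERVH48-1 (ENSG00000233056, chromosome 21) had 4, 4 and 5 counts in control and 4, 8 and 2 in knockout libraries, or 0.17, 0.22 and 0.17 against 0.17, 0.16 and 0.089 CPM. Both were therefore detected in all 6 libraries, and their groups overlapped. On log2(CPM + 0.5) the difference was 0.040 for ERVW-1 (exact two-sided permutation p 0.60) and -0.10 for ERVH48-1 (exact p 0.30), in a design whose smallest p is 0.10. Without an expression filter edgeR gave 95% intervals of the log2 fold change of -0.56 to 0.996 for ERVW-1 and -1.44 to 0.91 for ERVH48-1. Changes within these intervals are not excluded by these counts. The intervals may be too narrow, since p-values of that fit are not comparable with those of the main fit. ERV3-1 had an SE of 0.11 in both, but an edgeR adjusted p of 7.5e-53 without the filter against 1.5e-13 with it.

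**Figure D3:**
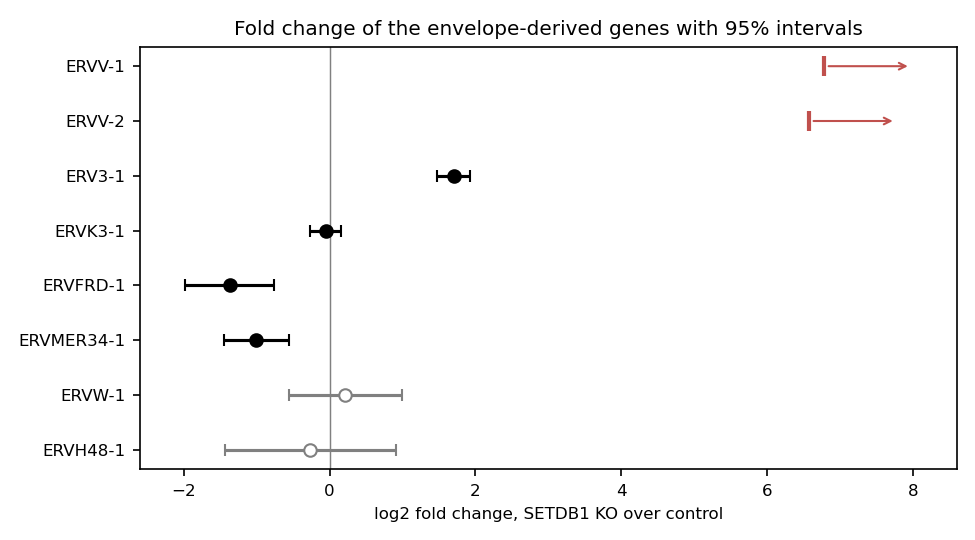
Log2 fold change (horizontal axis, SETDB1 knockout over control) of the 8 genes. Filled points are edgeR estimates with 95% intervals, open grey points the 2 genes under the expression filter (ERVW-1 and ERVH48-1, fit without a filter), and arrows start at the lower bound of ERVV-1 (6.78) and ERVV-2 (6.58), which have no control count.

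Calls among the neighbours of the 2 untested genes are set beside 32.8% higher and 30.0% lower over all tested genes. Of the 10 neighbours of ERVW-1, 6 rose, 2 fell and 2 did not pass (median log2 fold change 0.25). GATAD1, which overlaps it, rose by 0.36 on the log2 scale, SAMD9, an antiviral factor, rose by 2.59, and KRIT1 and CDK6, a cell cycle kinase, fell by 0.50 and 0.34. Of those of ERVH48-1, 4 rose, 2 fell and 4 did not pass (median 0.27). NDUFV3, next to it, rose by 0.14, PKNOX1 on the other side did not pass, and WDR4 and CBS, an enzyme of cysteine synthesis, fell by 0.48 and 1.99. Over the 70 different neighbours of all 8 genes, 34 rose (48.6%), 15 fell (21.4%) and 21 did not pass, with a median log2 fold change of 0.25. The shares over all tested genes were 32.8% higher and 30.0% lower. Of the 34 that rose, 10 were those shared by ERVV-1 and ERVV-2 and 9 were neighbours of ERVK3-1. Both sets lie on chromosome 19, where 58.9% of 1138 tested genes were called higher. Of the 20 neighbours that rose at least 2-fold, 10 were those shared by ERVV-1 and ERVV-2. Chromosome medians were 0.34 for chromosome 19, which carries 3 of the 8 genes, 0.058 for chromosome 7, 0.033 for chromosome 4 and 0.028 for chromosome 21.

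Genes with the most similar pattern were sought by the distance between centred log2(CPM + 0.01) values over the 6 libraries. For ERV3-1 they were CCDC198 (0.19), ZNF132 (0.20) and LPCAT2 (0.20). For ERVFRD-1 they were WDR35-DT (0.36), C1GALT1C1L (0.39) and CD83 (0.44), and for ERVMER34-1 they were MDH1B (0.12), PTMAP5 (0.13) and PKD1L2 (0.20). ERVV-1 was closest to ZNF665 (0.22), which is also among its neighbours, then to ZNF563 and TSPAN8 (0.40 each). ERVV-2 was closest to ZNF479 (0.20), GABRA3 (0.26) and ZNF563 (0.27). For these 2 genes all control values are 0, so likeness means that the other gene is also at 0 there.

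The receptors of the envelope proteins were expressed in both genotypes. SLC1A5, the neutral amino acid transporter that binds syncytin-1 and suppressyn, was at 149 ± 7.57 and 139 ± 2.39 CPM (SD, n = 3) and did not pass the threshold (log2 fold change -0.10, edgeR adjusted p 0.051). SLC1A4, its relative and a second syncytin-1 receptor, fell from 37.2 ± 0.58 to 22.5 ± 0.98 CPM (log2 fold change -0.71, edgeR adjusted p 1.9e-11). MFSD2A, the syncytin-2 receptor, fell from 3.96 ± 0.23 to 2.36 ± 0.47 CPM (log2 fold change -0.77, edgeR adjusted p 3.9e-05). These changes were not set against the median of each receptor's chromosome. Chromosome medians ranged from -0.54 (chromosome 2, where 72.4% of 1055 tested genes were called lower) to 0.37 (chromosome 12).

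In the list of envelope receptors and trophoblast fusion genes, 17 of 31 were tested. Of these 7 rose, 7 fell and 3 did not pass, with a median log2 fold change of 0.18. Over all tested genes 32.8% were higher and 30.0% lower. GATA3 and PPARG, transcription factors of trophoblast among other tissues, rose by 1.32 and 0.86 on the log2 scale. GATA2 and GJA1, the gap junction protein connexin 43, had log2 fold changes of -1.40 and -1.02. GCM1, the factor that drives syncytin expression in placenta, was at 0.044 and 0.035 CPM and was not tested.

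Other genes of retroelement origin were measured for comparison. Of 30 protein genes derived from the gag or related genes of retroelements, 16 were tested: 4 rose, 6 fell and 6 did not pass, with a median log2 fold change of -0.11. The shares over all tested genes were 32.8% higher and 30.0% lower. PEG10, a gag-derived gene needed for placenta formation, fell from 132 ± 8.01 to 75.7 ± 2.46 CPM (SD, n = 3), and PNMA2 fell from 64.4 ± 1.79 to 40.03 ± 1.83 CPM. NYNRIN had a log2 fold change of -1.18, and MOAP1, an apoptosis modulator, rose by 0.58. None of the 16 rose by as much as ERV3-1 (largest log2 fold change 0.58). Of 10 other named endogenous retrovirus loci found in the table, 2 were tested. ERVK13-1, a noncoding transcript, rose from 19.8 ± 1.44 to 22.2 ± 0.24 CPM (log2 fold change 0.17, edgeR adjusted p 0.027), a call that upper quartile scaling, DESeq2 and fits without KO replicate 2 or without KO replicate 3 did not give (0 higher calls among these loci in each). HHLA3 did not pass.

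**Figure D4:**
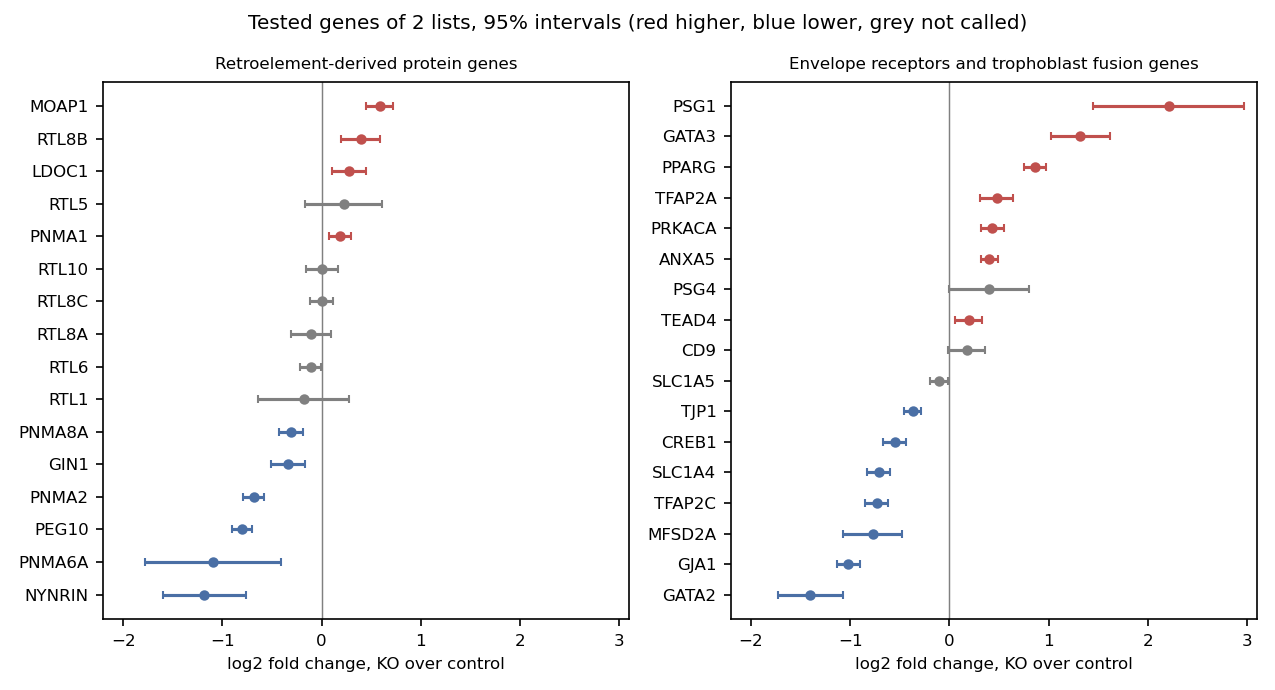
Log2 fold change (horizontal axis, knockout over control) with 95% intervals for the tested genes of 2 lists, retroelement-derived protein genes on the left and envelope receptors and trophoblast fusion genes on the right. Genes called higher are red, called lower blue and not called grey. Changes on the left reach from -1.18 (NYNRIN) to 0.58 (MOAP1), and those on the right from -1.40 (GATA2) to 2.21 (PSG1).

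Genes of the machinery that silences retroelements were called in both directions, as were all tested genes (32.8% higher and 30.0% lower). Of 28 tested genes of that list, SETDB1 included, 11 rose, 14 fell and 3 did not pass (median log2 fold change -0.14). ATF7IP, the nuclear partner that stabilises SETDB1, rose from 65.2 ± 3.28 to 302 ± 12.7 CPM (SD, n = 3), and RESF1, a SETDB1 partner, from 73.2 ± 6.11 to 166 ± 9.81 CPM. ZNF93, a KRAB zinc finger protein that binds LINE-1 elements, had no control count and was at 14.7 ± 0.97 CPM in knockout libraries, at least 347.6-fold higher. ZNF91, which binds SVA elements, was at 0.27 ± 0.16 and 247 ± 14.1 CPM. TRIM28 did not pass the threshold (599 against 575 CPM, edgeR adjusted p 0.30). The changes of these genes were not set against those of each gene's chromosome. The share of tested genes called higher was 65.9% of 862 on chromosome 12 and 58.9% of 1138 on chromosome 19.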

How the data were processed

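The deposited gene table held raw counts per gene in 6 RNA-seq libraries, made with a stranded total RNA kit per the labels' protocols. STAR 2.6.1c, edgeR 3.30.0 and the build hg19 are named in the submitters' processing notes, with no role given, and the counting setting is not given in the sources used here. No column of per-sample values was left unmapped (0 columns), and 58642 of 62486 gene IDs (93.8%) had a symbol. edgeR 4.0.16 under R 4.3.3 was used for the fit: genes were kept by filterByExpr, libraries scaled by TMM, and genotype tested by the quasi-likelihood F-test with robust dispersion. This step was tested on simulated data. SE is the log2 fold change divided by the square root of F. Other tools were limma 3.58.1, DESeq2 1.42.0, Python 3.11.15 and pandas 2.3.3.

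Libraries of a genotype differed beyond sampling noise, so none was merged. The members and gene lists were chosen with earlier results of these data known. All 8 members, SETDB1, 3 envelope receptors, the immediate tested neighbours and those changed by at least 2 on the log2 scale, the 4 largest called changes of each list (mean CPM of at least 1) and the 3 most similar genes of each changed member were named by rule; others were chosen after their values were seen. Gene order and chromosome were read from RefSeq (assembly GRCh38.p14), as were promoter windows, and no position was set against hg19. Deposited peaks, domains and compartment values were not used here, since no gene positions on hg19 were at hand.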

Additional observations from a re-analysis of the deposited data

How the results depend on the processing

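Over 311 values under alternatives, 300 kept their direction and side of the threshold or, for counts of genes, stayed within 1.5 times the count reported, 10 moved and 1 reversed. Within that limit, silencing genes that fell numbered 10 to 16, against 14. The reversal was ERVK3-1, past the threshold in no fit, whose log2 fold change ranged from -0.10 to 0.0081 when each library was left out, the positive value without CT replicate 1. The 3 members that rose did so under every alternative run. Members that fell numbered 2, or 1 with a filter of CPM of at least 1 in 3 libraries, which removes ERVFRD-1. ERV3-1 ranged from 1.62 to 1.80 on the log2 scale, ERVFRD-1 from -1.60 to -1.11 and ERVMER34-1 from -1.08 to -0.83, with adjusted p up to 0.0047 and 0.0070 for the last pair. Without an expression filter 7 retroelement-derived protein genes were higher. Higher calls among other named endogenous retrovirus loci numbered 0 under upper quartile scaling and DESeq2, 2 without a filter, and 0 to 2 when each library was left out. More genes were tested without a filter, and the cause of these moves was not tested. Replicate numbers did not pair the libraries: deviations of libraries with equal numbers correlated at 0.11, 0.064 and 0.047. A replicate block left 3 members higher and 2 lower. Fold changes of ERVW-1 and ERVH48-1 are limited by depth: over 3 libraries they had 25 and 13 counts in control and 38 and 14 in knockout cells. Peak and compartment comparisons and their alternatives were not run, for want of gene positions on hg19.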

Other observations

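Of the listed genes of retroelement origin under the expression filter, 4 had every knockout library above every control library in CPM, a criterion chosen after their values were seen. The 2 lists had 30 and 10 genes in the table, of which 25 and 6 had a count and 16 and 2 were tested. How often genes under the filter lack overlap over the whole table was not counted, so the 4 are a description. ERVK-28, a noncoding ERV-K locus, had 2, 3 and 5 counts in control and 5, 24 and 15 in knockout libraries, and without an expression filter its log2 fold change was 1.73 (edgeR adjusted p 0.0015). ZCCHC12, a gag-derived gene, had 0 counts in each control library and 5, 24 and 6 in knockout libraries (edgeR adjusted p 4.4e-08 without a filter). PNMA3 had 5, 3 and 5 counts in control and 7, 25 and 9 in knockout libraries (log2 fold change 1.25, edgeR adjusted p 0.023 without a filter). PNMA8C had 3, 1 and 3 against 7, 12 and 5 counts, and did not pass the threshold (edgeR adjusted p 0.077 without a filter). Adjusted p-values without a filter are not comparable with those of the main fit. For ERV3-1 edgeR gave 7.5e-53 without the filter and 1.5e-13 with it, at an SE of 0.11 in both.

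Chromosomes differed in their median log2 fold change. It was -0.54 over 1055 tested genes of chromosome 2 and 0.37 over 862 of chromosome 12, neither of which carries one of the 8 genes, against 0.34 over 1138 genes of chromosome 19. Of the most similar genes, WDR35-DT, C1GALT1C1L and MDH1B lie on chromosome 2.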
